A study of Mus musculus with 2 samples.

Results

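Imprinted genes were examined for the polycomb protein Ring1b in incisor pulp cells of the mouse. The group held 38 genes, picked by name. In at least some tissues these are transcribed mainly from the copy inherited from 1 parent. Which copy was active in these pulp cells was not measured. The genes fell into 14 chromosomal domains and comprised 32 protein-coding genes and 6 long non-coding RNA (lncRNA) genes. A member counted as bound when the deposited gene table, which holds 3993 genes, listed it with at least 1 Ring1b interval. That table reaches 10 kb beyond each gene. By this measure 4 of 38 members were bound (10.5%, exact 95% interval 2.94 to 24.8%): Igf2, Gnas, Copg2 and Ube3a. The same held for 10.8% of 34614 protein-coding and lncRNA genes and for 15.8% of protein-coding genes alone, so the share of members is near the background and is not a result about imprinted genes. RefSeq starts were at hand for 30 of the 38 members and for 27025 of these genes. Among those, a region lay within 2.5 kb of a start at 4 members and 8.74% of genes, and within 1 kb at 4 members and 8.09% of genes. A region lay within 10 kb of the RefSeq gene at 4 of 38 members and 13.8% of all 34614 genes. The 95% interval above treats members as independent, which neighbours in a domain are not, so it may be too narrow.

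The data come from chromatin immunoprecipitation and sequencing (ChIP-seq) of Ring1b in pulp tissue of CD1 mice aged 5 postnatal days. Before collection the animals received EdU, a thymidine analogue that marks cells that have copied their DNA, once at 3.3 µg per g, and 24 h later the EdU-positive cells were fixed, stained, sorted by flow cytometry and used. There was 1 ChIP sample for Ring1b beside 1 of input DNA from the same tissue, by the labels, and no input values were used here. The ChIP files hold separate interval sets, here called runs 1 and 2, with 465 and 3938 intervals, merged by the authors into 4316 regions. The file headers name these sets rep1 and rep2, so they may be replicates. A call in run 2 alone may then be one that was not reproduced. The sets were counted as 1 sample, because the labels do not separate them. No replicate error can therefore be given, and no test between groups was possible. Heights are the authors' summit values, whole numbers with a scaling that no label or header states, and sequencing depth is unknown. ChIP without allele information reads the maternal and paternal copies together. An EdU-positive pulp suspension can hold several cell types, so low signal in all cells and higher signal in a few cannot be told apart.

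As background, imprinted genes lie in clusters governed by imprinting control regions, short sequences whose DNA is methylated on 1 parental chromosome and not on the other. Ring1b is the ubiquitin ligase of polycomb repressive complex 1, which marks histone H2A at silent or lowly expressed genes and binds mostly at CpG-rich starts. In mouse extra-embryonic tissue, the lncRNAs Kcnq1ot1 and Airn silence neighbouring genes in cis together with polycomb proteins. In most body tissues the domains are held by DNA methylation at the control regions, at some of them with the insulator protein CTCF. Polycomb proteins are described at only some of the domains.

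The starts of the 4 bound members are shown first, because the regions lay on or beside them. Each window runs from 250 bases before to 50 bases after a RefSeq start in GRCm38.p6, the assembly that mm10 names, and is printed 5′ to 3′ with every CpG dinucleotide in capitals. The windows are Igf2 at chr7:142661222-142661521 on the minus strand, Gnas at chr2:174327499-174327798 and chr2:174329756-174330055 on the plus strand, Copg2 at chr6:30896745-30897044 on the minus strand and Ube3a at chr7:59228500-59228799 on the plus strand.
Igf2 start: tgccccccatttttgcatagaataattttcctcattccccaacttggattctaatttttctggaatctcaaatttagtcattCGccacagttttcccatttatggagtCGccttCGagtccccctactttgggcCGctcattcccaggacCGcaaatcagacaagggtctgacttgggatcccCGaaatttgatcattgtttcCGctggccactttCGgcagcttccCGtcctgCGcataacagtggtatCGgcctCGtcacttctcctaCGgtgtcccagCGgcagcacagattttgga
Gnas upstream start of the pair: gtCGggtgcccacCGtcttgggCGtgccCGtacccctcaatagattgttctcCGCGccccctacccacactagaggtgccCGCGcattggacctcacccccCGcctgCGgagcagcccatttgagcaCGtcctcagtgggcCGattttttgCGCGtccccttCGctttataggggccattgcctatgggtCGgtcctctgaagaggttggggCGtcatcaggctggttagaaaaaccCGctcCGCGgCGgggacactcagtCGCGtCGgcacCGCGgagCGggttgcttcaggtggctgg
Gnas downstream start: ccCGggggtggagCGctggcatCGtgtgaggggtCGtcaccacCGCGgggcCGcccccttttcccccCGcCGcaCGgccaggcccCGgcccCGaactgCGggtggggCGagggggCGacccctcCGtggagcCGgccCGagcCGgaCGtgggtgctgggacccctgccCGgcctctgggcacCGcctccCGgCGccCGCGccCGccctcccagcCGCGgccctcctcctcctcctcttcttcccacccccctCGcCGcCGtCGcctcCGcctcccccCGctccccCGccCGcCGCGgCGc
Copg2 start: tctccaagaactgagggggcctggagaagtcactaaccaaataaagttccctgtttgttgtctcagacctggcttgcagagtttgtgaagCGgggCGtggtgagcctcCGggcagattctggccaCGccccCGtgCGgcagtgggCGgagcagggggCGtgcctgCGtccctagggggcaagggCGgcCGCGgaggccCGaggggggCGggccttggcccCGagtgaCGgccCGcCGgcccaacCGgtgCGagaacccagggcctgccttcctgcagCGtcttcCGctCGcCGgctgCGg
Ube3a start: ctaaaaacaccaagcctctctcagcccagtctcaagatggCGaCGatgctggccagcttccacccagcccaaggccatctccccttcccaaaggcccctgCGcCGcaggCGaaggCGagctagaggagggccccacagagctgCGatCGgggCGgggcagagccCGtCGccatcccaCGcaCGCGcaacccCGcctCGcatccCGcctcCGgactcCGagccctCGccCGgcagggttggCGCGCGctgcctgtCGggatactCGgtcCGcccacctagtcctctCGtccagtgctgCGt
A further pair of windows is shown for contrast, chosen after the values were seen. Igf2r (chr17:12769657-12769956, minus strand) has a CpG-rich start and Dlk1 (chr12:109452573-109452872, plus strand) a start with fewer CpGs, and neither had a region within 500 kb.
Igf2r start: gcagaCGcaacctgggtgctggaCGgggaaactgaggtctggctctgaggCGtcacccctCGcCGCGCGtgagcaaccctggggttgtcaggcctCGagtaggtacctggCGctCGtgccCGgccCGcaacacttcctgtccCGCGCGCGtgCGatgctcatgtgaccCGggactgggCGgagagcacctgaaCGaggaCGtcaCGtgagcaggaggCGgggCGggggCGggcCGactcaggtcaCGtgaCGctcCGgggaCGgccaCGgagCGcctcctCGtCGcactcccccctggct
Dlk1 start: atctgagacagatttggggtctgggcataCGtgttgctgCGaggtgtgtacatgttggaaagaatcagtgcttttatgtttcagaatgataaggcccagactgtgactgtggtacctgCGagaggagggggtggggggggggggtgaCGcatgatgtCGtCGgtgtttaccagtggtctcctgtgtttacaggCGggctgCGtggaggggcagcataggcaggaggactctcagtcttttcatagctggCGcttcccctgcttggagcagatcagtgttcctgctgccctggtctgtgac

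Igf2, the fetal growth factor of the distal chromosome 7 cluster, carried a pair of regions. The higher, of height 9, was 956 bp wide, at 142663461 to 142664416. It lay 2190 bp upstream of the start printed above and 2400 bp downstream of the most upstream RefSeq start, that is, between alternative promoters and over neither. The lower, of height 4 and 553 bp wide, at 142661190 to 142661742, covered the printed start itself, with its summit 233 bp upstream. The deposited table calls both regions upstream, because its model of Igf2 ends at 142661035. The RefSeq model reaches 142666816, so both lie inside the gene there. The same regions were assigned to the antisense transcript Igf2as and to Mir483, a microRNA gene inside Igf2.

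Only 7.14% of the 3993 genes in the table had an interval of height 9 or more, and 19.9% had 2 or more regions, so Igf2 stood toward the upper end of bound genes by height. The 2 runs did not give Igf2 alike values. The mean height over its regions was 6.5 in run 2 and 1 in run 1, and no run 1 interval was called there. The other members of the cluster were not bound. Ins2, an insulin gene, lay 14.2 kb from the height-9 region, and H19, a lncRNA transcribed from the maternal copy, lay 83.0 kb from the height-4 region. No region lay between Igf2 and H19 in the track used here, so none covered the sequence just upstream of H19, where its control region lies.

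Gnas, on chromosome 2, encodes the alpha subunit of the stimulatory G protein and has several starts, some active on the maternal and some on the paternal copy. It held 4 regions, which 5.26% of genes in the table matched or exceeded. The highest, of height 9 and 361 bp wide, at 174328906 to 174329266, lay 740 bp upstream of the downstream start printed above. The next, of height 7 and 408 bp wide, at 174329541 to 174329948, ended 58 bp before that start. Both therefore sat just upstream of the most downstream RefSeq start of the gene used here.

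The other regions of Gnas were lower. One of height 3, at 174327247 to 174327851, covered the pair of closely spaced RefSeq starts at 174327749 and 174327768. The last, of height 4 and 1067 bp wide, at 174297038 to 174298104, was shared with Nespas, the antisense transcript of the locus, and lay 2164 bp upstream of the start of Nespas by summit. The most upstream start of Gnas, at 174284320, had none, and the nearest region to it was 12718 bp away. Over the 4 regions the mean height was 5.75 in run 2 and 1.5 in run 1, and again no run 1 interval was called.

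**Figure D1:**
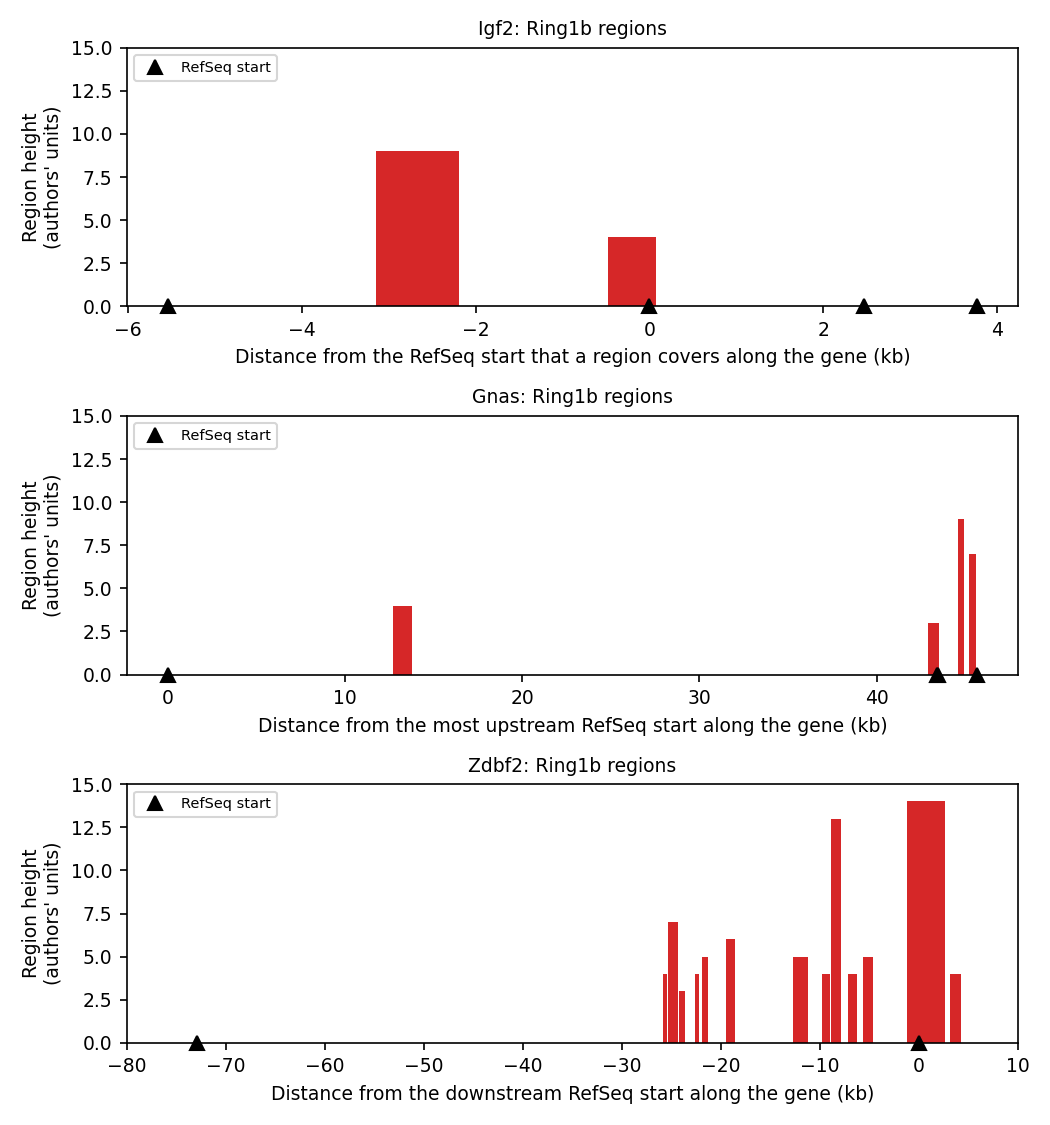
Bars give the position, width and height of each Ring1b region at Igf2, Gnas and Zdbf2, plotted against distance in kb from a RefSeq start, with triangles for all RefSeq starts of the gene in the promoter table. At Igf2 the bar of height 9 lies between starts, at Gnas the bars of height 9 and 7 lie just before the last start, and at Zdbf2 13 bars run up to and across the downstream start.

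Copg2 and Ube3a, the remaining bound members, had 1 region each, at the start of the gene. Copg2, which encodes a subunit of the vesicle coat COPI, had a region of height 6 and 749 bp on chromosome 6, at 30896269 to 30897017, which covered its RefSeq start. The neighbouring gene Tsga13, whose RefSeq model borders that of Copg2, was assigned the same interval, so the interval cannot be given to either gene alone. Its height was 6 in run 2 and 1 in run 1. Of the genes in the table, 27.9% had an interval as high. Copg2 overlaps the end of Mest, the paternally expressed gene of the domain, but the region was at the far end of Copg2, and Mest lay 148 kb from it.

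Ube3a, a ubiquitin ligase expressed from the maternal copy in neurons, had a region of height 4 and 630 bp on chromosome 7, at 59228233 to 59228862, over its start. The height was 4 in run 2 and 0 in run 1, the lowest pair of values among the bound members. An interval of at least this height was held by 78.7% of genes in the table.

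Across the 4 bound members, the highest intervals were 9, 9, 6 and 4. Their median was 7.5, against a median of 5 and quartiles of 4 and 6 over all genes in the table. Taking for each of the 4 members the interval closest to its deposited start gave a median of 4. No like median over all genes is given here, so this value cannot be set against 5. At Gnas that interval lay 13280 bp from the deposited start. An interval of height 5 or more was held by 3 of 38 members and 5.47% of protein-coding and lncRNA genes, and one of height 6 or more by 3 of 38 and 2.99%. All 4 members were called in run 2, in which 10.2% of these genes had an interval, and 0 in run 1, in which 1.19% had one. Among 3559 genes with no run 1 interval, the median run 1 mean height was 0 and the upper quartile 1, so the run 1 values of 0 to 1.5 at these members lay within or just above that range.

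**Figure D2:**
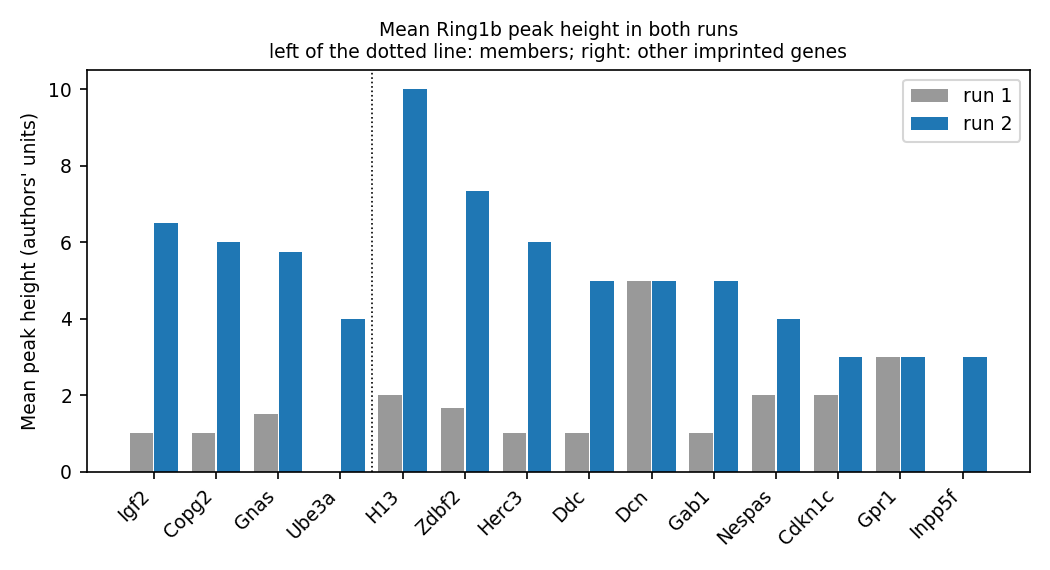
Bars give the authors' mean peak height in run 1 (grey) and run 2 (blue) for the 4 bound members and, right of the dotted line, 10 other imprinted genes with an interval. Run 1 was at or below 1.5 at every bound member, whereas Dcn and Gpr1 had equal heights in both runs.

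The remaining 34 members had no interval. Their distance to the nearest region had a median of 454 kb and ran from 12.9 to 1928 kb. The 30859 protein-coding and lncRNA genes with no interval had a median of 210 kb. Of the unbound members, 17 (50%) lay at least 500 kb from any region, against 26.2% of all unbound genes. Over all 38 members the share was 44.7%, and over all protein-coding and lncRNA genes 23.4%. Neighbouring members share the same empty stretch, so these distances are few independent values, and no test was made.

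**Figure D3:**
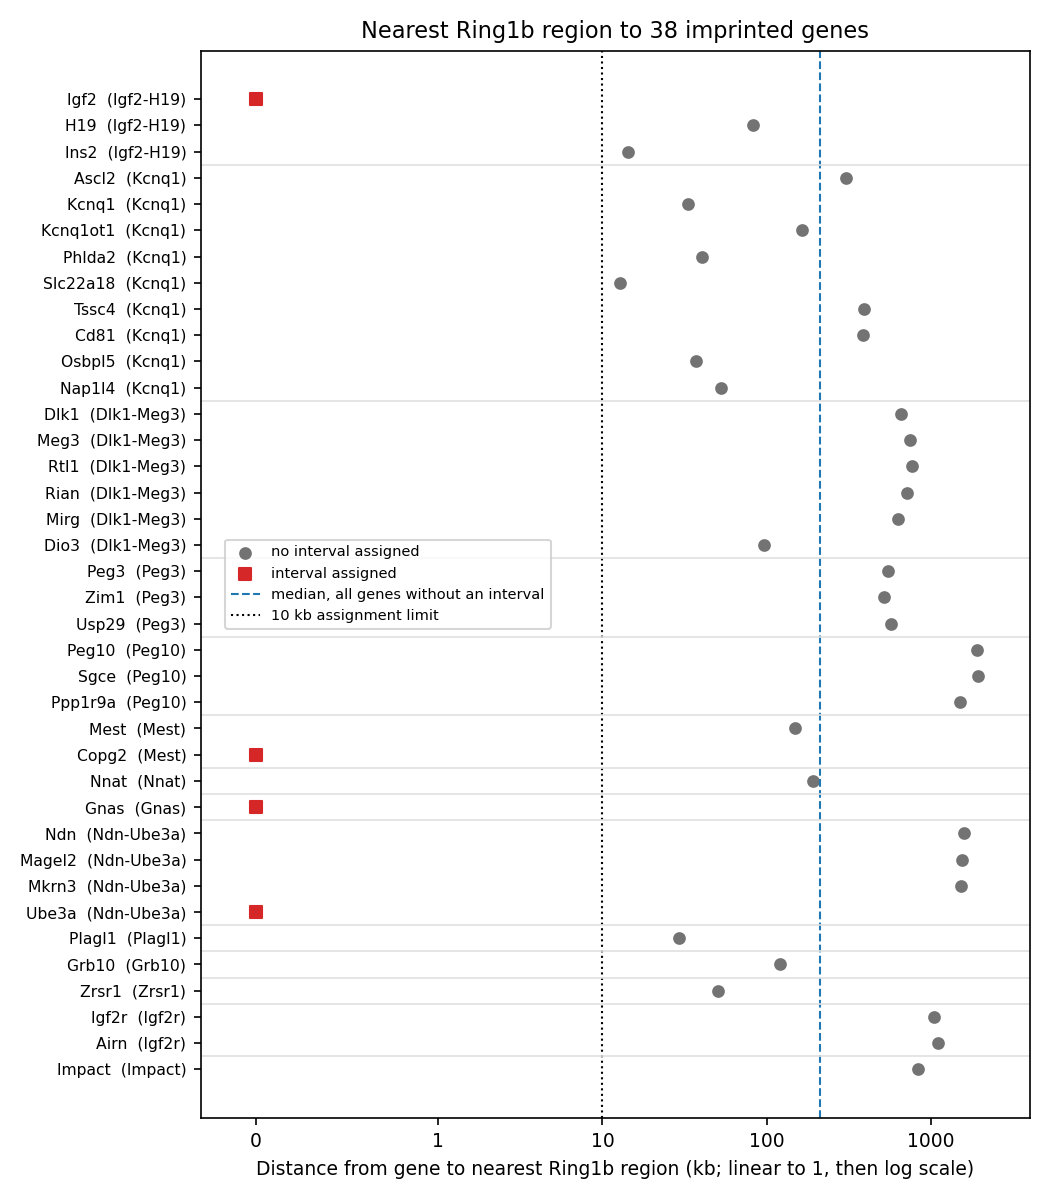
Points give the distance in kb from each of the 38 imprinted genes to the nearest Ring1b region, on an axis that is linear to 1 kb and logarithmic beyond, with the domain in brackets. The 4 bound members sit at 0, all others lie beyond the 10 kb limit, and members of the Dlk1-Meg3, Peg3, Peg10, Igf2r and Ndn-Ube3a domains lie mostly to the right of the dashed line at 210 kb.

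The domains differed in how they were empty. Each span was taken from the first to the last of its listed imprinted genes with 10 kb on each side. The 14 spans summed to 9.67 Mb and held 11 regions, or 1.14 per Mb, against 1.6 per Mb over the annotated length of all chromosomes. The pooled value leans on the longest span, Ndn-Ube3a, with 3828 kb at 0.261 per Mb. The other spans that held a region ranged from 2.26 per Mb (Kcnq1) to 46.8 per Mb (Gnas). This range leaves out the spans with no region, and in a short span 1 region already gives a high value. Neither a shortage nor an excess of regions in imprinted domains is read from these values. In 8 of 14 spans there was no region at all. The Gnas span held 4, the Igf2-H19 and Kcnq1 spans 2 each, and the Mest, Ndn-Ube3a and Grb10 spans 1 each. Of these 11 regions, 5 had a height of 5 or more.

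The Kcnq1 domain, which adjoins Igf2 on chromosome 7, had no bound member among 9. Its 884 kb held a region of height 3 at 143460228 to 143460870, in Cdkn1c, which encodes an inhibitor of cyclin-dependent kinases, and a region of height 4 at 143651062 to 143651621, assigned to Tnfrsf22. Kcnq1ot1, the paternally expressed lncRNA of the domain, lay 164 kb from a region. Kcnq1, a potassium channel gene that Kcnq1ot1 runs through in antisense, lay 33.2 kb away. Also nearer than Kcnq1ot1 were Slc22a18, a membrane transporter gene (12.9 kb), Osbpl5, an oxysterol-binding protein gene (37.1 kb), Phlda2, a restraint on placental growth (40.7 kb), and Nap1l4, a histone chaperone gene (52.7 kb). Farther away were Ascl2, a trophoblast transcription factor gene (302 kb), Cd81, a tetraspanin gene (388 kb), and Tssc4 (389 kb).

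In the Dlk1-Meg3 domain of chromosome 12 all 6 members lay in a stretch of 1583 kb without a region. Dlk1, which encodes a Notch-related membrane protein of growing tissue, lay 658 kb from the nearest, and Meg3, the maternally expressed lncRNA, 746 kb. Rtl1, a gene derived from a retrotransposon, lay 770 kb away. Rian and Mirg, which carry small RNA genes, lay 716 and 628 kb away, and Dio3, which encodes a thyroid hormone deiodinase, 96.8 kb. The span also holds 61 microRNA genes and 19 small nucleolar RNA (snoRNA) genes, none of which had an interval, against 5.54% and 0.821% of all annotated genes of these kinds. Because they share that empty stretch, these genes are not independent counts.

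Igf2r, the receptor that clears Igf2, and Airn, its antisense lncRNA on chromosome 17, lay in a stretch of 4191 kb without a region, 1043 and 1102 kb from the nearest. Peg3, a zinc finger gene, Zim1, a zinc finger gene, and Usp29, a deubiquitinase gene, shared a stretch of 5854 kb on chromosome 7. They lay 548, 518 and 574 kb from the nearest region. On chromosome 6 no region began before 6675489, which left Peg10, derived from a retrotransposon, Sgce, a sarcoglycan gene, and Ppp1r9a, a neuronal actin-binding protein gene, 1915, 1928 and 1510 kb away. Of 4295 gaps between neighbouring regions 711 (16.6%) exceeded 1 Mb, and these made up 63.4% of the annotated length. Gaps as long as 4191 or 5854 kb were not counted separately, so how common they are is not known here. The stretch before the first region of chromosome 6 is not among these gaps.

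In the Ndn-Ube3a domain, 3828 kb of chromosome 7, the region at Ube3a was alone. Ndn and Magel2, both of the MAGE family, and Mkrn3, a ring finger gene, lay 1587, 1556 and 1517 kb from the nearest region. The span holds 206 snoRNA genes, none with an interval, against 0.821% of all annotated snoRNA genes. As neighbours in the same span these genes are not independent counts. Mest, whose domain also holds the bound Copg2, was unbound and lay 148 kb from a region. Members that stand alone or nearly so were also unbound. Nnat, a neuronal membrane protein gene, lay 191 kb from a region. Grb10, an adaptor that restrains growth signalling, lay 121 kb away, and the 1 region of its span, of height 5, lay beyond the end of the neighbouring gene Ddc and was shared with Fignl1. Zrsr1, a retrogene related to a splicing factor, lay 50.8 kb away, Plagl1, a zinc finger gene, 29.3 kb, and Impact, a translation regulator gene, 834 kb.

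Each member was given 1 textbook direction of imprinting. By these labels, 3 of 18 maternal members (Copg2, Gnas and Ube3a) and 1 of 19 paternal members (Igf2) were bound. Gnas was counted as maternal although some of its starts are active on the paternal copy. Ube3a was counted as maternal from its expression in neurons. The labels therefore do not state which copy was active in these cells. With 10.8% of all protein-coding and lncRNA genes bound, no difference between maternal and paternal members is read from counts this small, and none was tested. Grb10, whose active copy differs between tissues, was labelled as mixed and was not bound. None of the 6 lncRNA members was bound, against 2.31% of all lncRNA genes.

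Base composition of the starts was compared next, as a property that the choice of members did not use. RefSeq windows were found for 30 of 38 members, 43 windows in all. The 6 member windows that a region overlapped, in 4 genes, had CpG ratios (observed to expected CpG) of 0.71 to 0.9. The lowest ratio was at Copg2, and the highest at Gnas. The Igf2 window had the lowest GC content of these, 49.7%, and the downstream Gnas window the highest, 81.7%, with 40 CpGs. The 37 member windows without a region had a median ratio of 0.59, with a range of 0 to 0.97. Over 32851 windows of protein-coding and lncRNA genes, the median ratio was 0.87 where a region overlapped and 0.35 where none did.

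Most member starts of high CpG ratio had no region. At ratios of 0.6 or more, a region overlapped 6 of 24 member windows (25%) and 14.9% of all windows. The 6 include the overlapping pair at Gnas. Below 0.6 a region overlapped 0 of 19 member windows and 0.91% of all windows. The unbound Igf2r window had a ratio of 0.91 and 34 CpGs, that of Grb10 at 12037371 to 12037670 a ratio of 0.97 and 45 CpGs, and that of Ppp1r9a at 4903061 to 4903360 a ratio of 0.97 and 48 CpGs. Rian had 0 CpGs in its window.

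**Figure D4:**
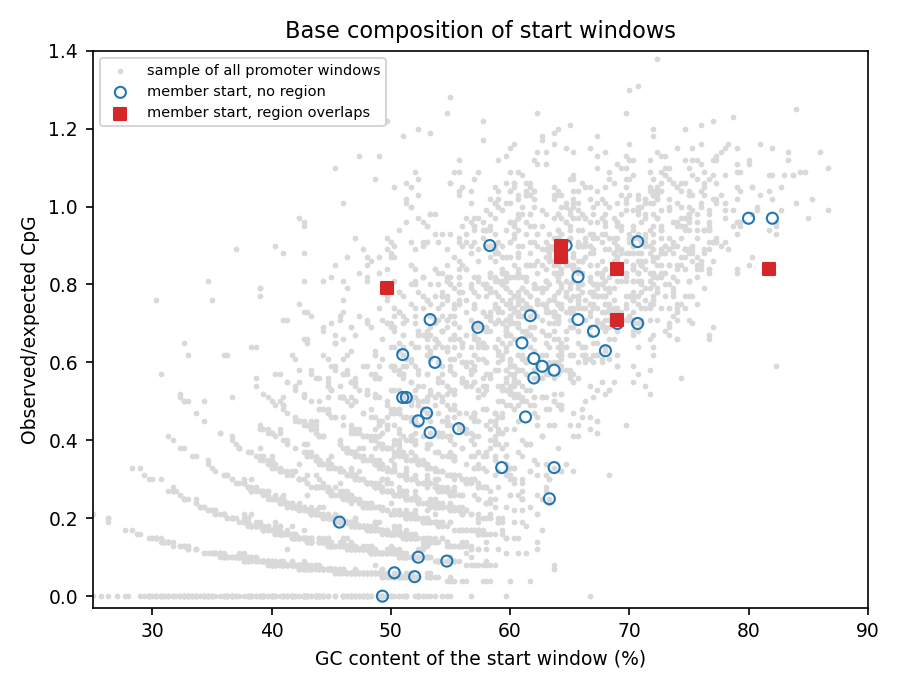
Each point is a 300-base window at a RefSeq start, by GC content in percent and observed to expected CpG, with a seeded sample of all windows in grey. Member windows that a region overlaps (red squares) lie at ratios of 0.71 to 0.9, and member windows with none (open circles) spread from 0 to 0.97.

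Outside the 38 members, 10 of 44 further imprinted genes were bound (22.7%), with a median height of 5, which is also the median over all genes in the table. The share over all protein-coding and lncRNA genes was 10.8% and over protein-coding genes 15.8%. At heights of 5 or more 6 of 44 were bound, against 5.47% of protein-coding and lncRNA genes. No test was made, and nothing particular to imprinted genes is read from these counts. The list was drawn up from general knowledge, with earlier results on these data known. The highest was Zdbf2 on chromosome 1, a paternally expressed zinc finger gene. In mouse embryonic cells its downstream start is known to be kept silent by polycomb marks until transcription from an upstream start runs through it. Its highest region, of height 14 and 3911 bp wide, at 63272037 to 63275947, covered the downstream RefSeq start at 63273269. Only 1.83% of genes in the table had an interval of height 14 or more.

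Within the RefSeq model of Zdbf2 there were 13 regions in 30.1 kb, which covered 48.2% of that stretch. Of these, 11 lay before the downstream start, among them a region of height 13 at 63264361 to 63265405, and 1 lay after it. The first began 47060 bp past the upstream start at 63200358, which was itself free of regions. The deposited table assigned 6 intervals to Zdbf2, because its gene model begins at 63273269. The mean height over those was 7.333 in run 2 and 1.667 in run 1, and none of the 13 regions was called in run 1. Among 4316 windows of the same length that began at a region, 9 held as many regions, on 4 chromosomes. The length was set by the Zdbf2 regions themselves and the windows can overlap, so this count is description only.

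Next by height were H13, a signal peptide peptidase gene with a region of height 10 near its 3′ end, and Herc3, a ubiquitin ligase gene, at 6. The retrogene Mcts2 inside H13 lay 18.0 kb from that region. Dcn, a matrix proteoglycan gene, had an interval of height 5 in each run. Gpr1, a receptor gene beside Zdbf2, had one of height 3 in each run, shared with Eef1b2, Ndufs1 and Snora41. The merged region of these Gpr1 intervals lay 5.18 kb beyond the gene. Their summits were 37233 and 37446 bp downstream of its deposited start. Gab1 and Ddc reached 5, Nespas 4, and Cdkn1c and Inpp5f 3. Of 15 genes for proteins that set or maintain imprints, 6 were bound (40%), against 15.8% of protein-coding genes. At heights of 5 or more 2 of 15 were bound, against 5.47% of protein-coding and lncRNA genes, and no test was made. That share includes lncRNA genes, which were bound less often (2.31% at any height). It is therefore not a like comparison for these factors, all of them protein-coding. The 6 were Arid4a (7), a chromatin protein gene, the polycomb genes Ezh2 (5) and Eed (4), the corepressor gene Trim28 (4), Dnmt3l (4) and the DNA methyltransferase gene Dnmt3a (3). The interval of Dnmt3l lay 5.36 kb beyond the gene, 27217 bp downstream of its deposited start, and was shared with Icosl. Intervals were also shared at Arid4a, with 3110056K07Rik, and at Trim28, with Chmp2a, Mzf1 and Ube2m. Zfp57 and Ctcf, which encode proteins that bind imprinting control regions, had no interval.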

How the data were processed

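The authors' tools, per the submitters' processing notes, include BWA and SICER, on build mm10; versions and settings are not given in the sources used here. The deposited gene table gives heights as signal values: the highest interval of a gene and the mean height in each run. The deposited tracks give each summit a score, which is the same height, and runs were called separately and merged by the authors per the file headers. Height scaling is not stated. The list of track addresses was not used.

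Members, lists and domains were chosen with earlier results of these data known. Named genes were all members, any listed imprinted or imprint-factor gene with an interval (up to 12 by height) and genes sharing an interval. Region distances were taken to gene coordinates of a RefSeq table of GRCm38.p6, which held 3867 of 3993 deposited gene identifiers; any overlap of at least 1 bp counted. Starts and promoter sequences came from RefSeq. Python 3.11.15, pandas 2.3.3, numpy 2.4.6, scipy 1.17.1 and matplotlib 3.10.9 were used, and the distance step was tested on simulated data. The Clopper-Pearson 95% interval covers counting error only and treats members as independent, although neighbours in a domain are linked. There is 1 ChIP sample, so no p-value was computed.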

Additional observations from a re-analysis of the deposited data

How the results depend on the processing

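No paired analysis was possible because each group holds a single sample. Of 38 members, 4 were bound with run 2 alone, with regions inside the gene or within 2.5 kb of a start, and with regions within 10 kb of the RefSeq gene. Of the 30 members with a RefSeq start, 4 had a region within 2.5 kb of it and 4 within 1 kb. All 4 were protein-coding (of 32) and each stood in a domain of its own (4 of 14). At heights of 5 or more, and of 6 or more, 3 were bound, Ube3a being lost. With run 1 alone 0 were bound; run 1 holds fewer intervals. The median height of 7.5 became 4 with the interval nearest to the deposited start, because at both Igf2 and Gnas that interval has height 4. The 11 regions in the domain spans became 10 without flanks, 13 with flanks of 50 kb, 11 by midpoint and 5 at heights of 5 or more.

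The following alternatives were chosen after seeing the data. The 10 further imprinted genes became 6 at heights of 5 or more, 3 at 6 or more, 2 with run 1 alone and 10 with run 2 alone. The 6 imprint factors became 2, 1, 0 and 6. These counts are out of 44 and 15 genes. Over all protein-coding and lncRNA genes the shares at the same settings were 5.47%, 2.99%, 1.19% and 10.2%. The median distance of unbound members, 454 kb, became 719 kb with heights of 5 or more, 492 kb with run 2 alone and 3616 kb with run 1 alone, for which fewer regions remain. Over all unbound genes the same settings gave 487, 231 and 1793 kb. Depth is unknown, so an absent interval means that none was called, not that Ring1b was absent.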
